A study of Homo sapiens with 6 samples.

Results

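The genes described here are antisense long non-coding RNAs, that is, genes of type lncRNA whose symbol ends in -AS and a digit, together with the sense partner named before the -AS. A549 cells, a human lung adenocarcinoma line used as a model of non-small cell lung cancer (NSCLC), were transfected with a scrambled siRNA (NC) or with a single siRNA against FSCN1 (siFSCN1), and polyadenylated RNA was sequenced in 3 libraries per group from cells collected 48 h after transfection. The treatment label of the control libraries names a control plasmid, while the study's methods name a scrambled siRNA. FSCN1 encodes fascin, an actin-bundling protein that was also studied as an RNA-binding protein, and the comparison asks which transcripts change when it is silenced. With 1 siRNA sequence in every silenced library, loss of FSCN1 and other effects of that sequence cannot be told apart.

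Members had a mean raw count of at least 30 over the 6 libraries. Of the 30230 genes in the count table, 8332 were lncRNA genes and 997 of these carried an antisense name, of which 699 fell below the minimum and 298 were retained. The minimum uses the mean over both groups and not their difference. Just inside it were SEC24B-AS1 (mean count 30.2), CHMP1B-AS1 (30.5) and CPNE8-AS1 (30.8), with log2 fold changes of 0.79, -0.57 and 0.60. Just outside it were PLS3-AS1, PHKA2-AS1 and CDC42-AS1, each at a mean count of 29.8, with log2 fold changes of 1.07, -0.07 and -1.07. All 298 members passed the filter on low counts and were tested. Both genes named DNAJC9-AS1 in the table are members, and they are told apart below by identifier.

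An antisense RNA is transcribed from the strand opposite to its partner, and either overlaps the partner's transcript or starts beside the partner's promoter and runs away from it. Such RNAs can act on their partner by keeping chromatin open or closed, by masking splice or binding sites, or by the act of transcription itself, and many have no known effect on it. RNA made upstream of promoters and on the antisense strand is often short-lived, since the nuclear exosome, a ring of EXOSC subunits with adaptor complexes, degrades it.

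Silencing was visible in every library. FSCN1 was at 45.0, 47.2 and 46.0 FPKM (fragments per kilobase of transcript and per unit of library depth, as deposited) in NC and at 4.46, 2.82 and 3.19 FPKM in siFSCN1, a log2 fold change of -3.89 ± 0.094 (SE, edgeR adjusted p = 8.1e-16). Libraries held between 27967301 and 36560919 counts. At least 1 count was found for 22904 to 23812 genes in NC and for 24738 to 25135 genes in siFSCN1, and the TMM scaling factors, which correct for RNA composition, were 0.933 to 0.942 in NC and 1.05 to 1.08 in siFSCN1. All 9 A549 markers checked, which include keratins and metabolic enzymes, were present at 2.8 to 3030 FPKM, with a sum of 7735 to 8747 FPKM. Single markers moved in either direction, such as KRT18 down and CDH1 up in siFSCN1. The defining type II alveolar markers SFTPC and NKX2-1 stayed at or below 0.1 FPKM. Of 7 markers of blood, endothelial and fibroblast cells, 6 were listed and none exceeded 0.39 FPKM.

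Antisense RNAs passed the test upward more often than downward after FSCN1 silencing. At an edgeR adjusted p under 0.05 and at least a 2-fold change, 67 members (22.5%) were higher and 7 (2.35%) were lower in siFSCN1, against 11.7% and 4.85% among all 17076 tested genes. With no fold threshold, 145 members passed the test in the upward and 45 in the downward direction, and 108 did not pass. Over all tested genes, 35.1% passed upward and 33.2% downward. The median log2 fold change was 0.43 over the members and 0.03 over all tested genes, and the members' median became 0.16 when the trend of fold change with abundance was removed. The CPM (TMM-scaled counts per unit of library depth) did not overlap between the groups for 213 members (71.5%), close to the 71.3% of all tested genes. The silenced libraries were the higher ones for 156 of the 213 and the lower ones for 57.

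Other classes of lncRNA also had more genes called higher than lower, apart from the SNHG genes. Of the 2361 other tested lncRNA genes, 629 (26.6%) were called higher and 95 (4.02%) lower, with a median of 0.38, which became 361 higher, 208 lower and a median of 0.06 with the abundance trend removed. Divergent lncRNAs, whose symbol ends in -DT, had 44 of 135 genes called higher and 0 called lower. Without the fold threshold, 71 of them passed upward and 5 downward. Intergenic LINC genes had 82 called higher and 5 called lower of 232. The SNHG genes, which host small nucleolar RNAs, had 2 higher and 3 lower of 24, and their median of -0.04 turned to 0.15 with library totals and to 0.08 with upper quartile scaling. Among the 13606 protein-coding genes, 8.34% were called higher and 5.01% lower. The order of antisense and other lncRNA genes in the share called higher depended on the setting. Library totals gave 97 of 298 and 765 of 2361, and the removed trend 46 of 298 and 361 of 2361. The order also depended on the count range. The members' share was the larger from 30 to 300 counts and the smaller from 300 counts upward. No test was made of a difference between the classes.

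**Figure D1:**
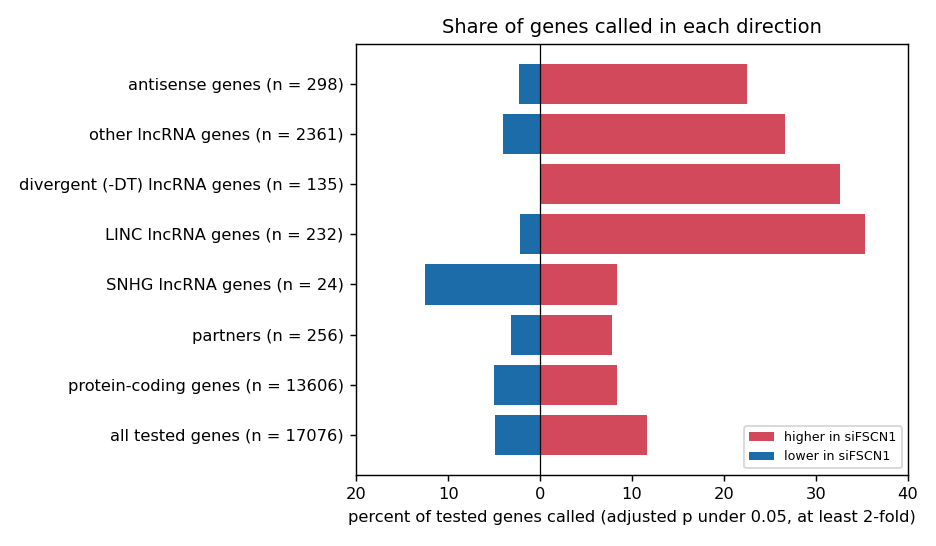
Percent of tested genes called higher (red, to the right of 0) and lower (blue, to the left of 0) in siFSCN1 for each class, with the number of tested genes in brackets. Antisense, other lncRNA, -DT and LINC genes have 22.5%, 26.6%, 32.6% and 35.3% called higher, against 8.34% of protein-coding genes and 11.7% of all tested genes.

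The rise moved with abundance. Members were scarce, with a median of 81.5 counts and 0.664 FPKM, and 118 of 298 reached 1 FPKM. Of the 171 members with a mean count of 30 to 100, 26.9% were called higher, beside 22.3% of all tested genes and 25.8% of other lncRNA genes in that range. From 100 to 300 counts the shares were 19.8% of 91 members, 13.3% of all genes and 16.8% of other lncRNA genes, and from 300 to 1000 counts they were 9.68% of 31 members, 4.62% of all genes and 13.1% of other lncRNA genes. Members of 300 to 1000 counts had a median log2 fold change of -0.14. When the trend of fold change with abundance over all genes was removed, 46 members were called higher and 13 lower, beside 8.02% and 6.73% of all genes. Among members that passed without the fold threshold, the share that was higher was 76.3%, and it became 59.8% after removing the trend and 86.4% with library totals. The part of abundance, of RNA composition or of the larger number of genes detected in siFSCN1 in this rise was not tested.

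**Figure D2:**
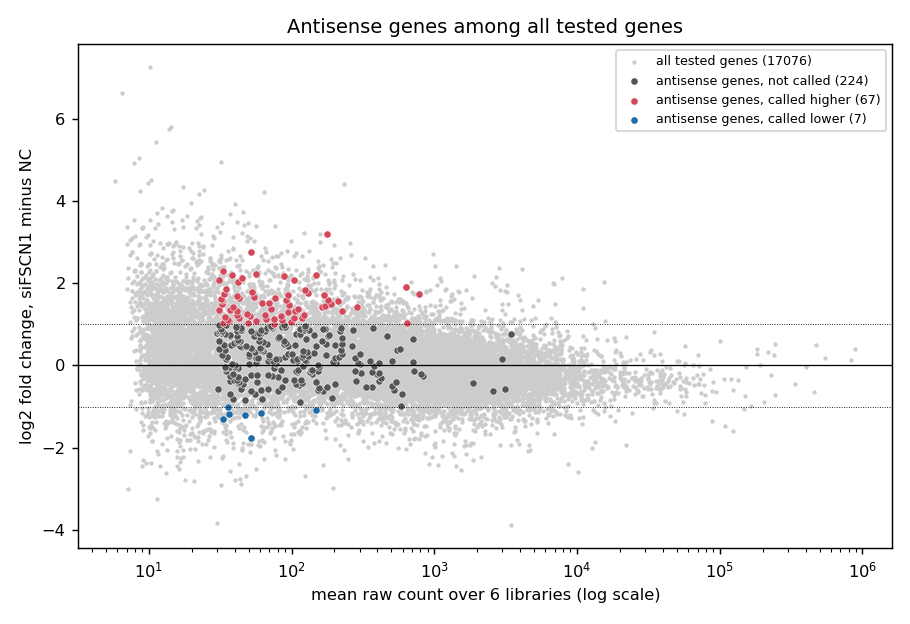
Log2 fold change (siFSCN1 minus NC) of each tested gene against its mean raw count over 6 libraries on a log scale, with all 17076 tested genes in grey, the 67 members called higher in red, the 7 called lower in blue and the other members in dark grey. Dotted lines mark a 2-fold change, and the called rises lie mostly at mean counts between 30 and 300.

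The summed level of all members was 1592, 1571 and 1516 CPM in NC and 1795, 1818 and 1776 CPM in siFSCN1. The groups did not overlap, and the ratio of the group means was 1.15, or 1.31 with library totals. For the CPM sums an exact two-sided permutation test gave p = 0.1, the smallest that 3 against 3 libraries allow. The 5 members with at least 1000 counts, OIP5-AS1, MIF-AS1, FGD5-AS1, IGFL2-AS1 and PCBP1-AS1, made up 29.1% of the sum in NC. They totalled 454 CPM in NC and 428 CPM in siFSCN1. The other 293 members together accounted for the higher sum in siFSCN1.

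Among the 12 largest rises, CCDC18-AS1 (chr1:93262186-93346025, GRCh38, minus strand) changed most. It was at 1.00, 1.03 and 1.08 CPM in the NC libraries and at 9.33, 9.75 and 9.68 CPM in the siFSCN1 libraries, a log2 fold change of 3.20 ± 0.14 (SE, adjusted p = 5.14e-13). The 3 silenced libraries were far above all controls. Its partner CCDC18, a coiled-coil protein gene whose end it overlaps by 72 exonic bases, was at 3.29, 3.04 and 2.02 CPM in NC and 4.16, 5.01 and 5.24 CPM in siFSCN1, a smaller rise of 0.80 ± 0.17 (adjusted p = 0.000338). The antisense RNA was at 33.9% of its partner's FPKM in NC and at 179% in siFSCN1.

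LMNTD2-AS1, within the lamin tail domain gene LMNTD2, was at 0.381, 0.342 and 0.467 CPM in NC and 3.34, 2.61 and 2.27 CPM in siFSCN1, a log2 fold change of 2.76 ± 0.26 (adjusted p = 2.33e-08). The groups did not overlap, and LMNTD2 itself rose by 1.52 on the log2 scale. TBC1D8-AS1, within TBC1D8, a gene of the TBC domain family of Rab regulators, was at 0.346, 0.190 and 0.438 CPM in NC and 1.80, 1.43 and 1.74 CPM in siFSCN1. Its log2 fold change of 2.30 ± 0.31 stood beside one of 0.80 in TBC1D8, and its exons overlap no exon on the opposite strand.

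DICER1-AS1 starts inside DICER1, the gene of the RNase that cuts microRNA precursors, and was at 1.21, 0.950 and 0.789 CPM in NC and 4.51, 4.37 and 4.39 CPM in siFSCN1. This is a log2 fold change of 2.18 ± 0.18, while DICER1 rose by 0.61 ± 0.056. INTS6-AS1, at the start of the Integrator subunit gene INTS6, was at 0.727, 0.380 and 0.672 CPM in NC and 3.05, 2.64 and 2.80 CPM in siFSCN1. Its log2 fold change of 2.23 ± 0.23 stood against -0.05 ± 0.11 for INTS6 (adjusted p = 0.712), whose fitted value lay above 0 with library totals and with upper quartile scaling.

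MBNL1-AS1, within the gene of the splicing regulator MBNL1, was at 0.761, 0.266 and 0.234 CPM in NC and 1.98, 1.61 and 2.15 CPM in siFSCN1, so that 1 control library lay well above the other controls but still below every silenced library. The log2 fold change was 2.19 ± 0.33, with MBNL1 at 0.46. PCF11-AS1, all of whose exons lie on exons of PCF11, a cleavage and transcription termination factor, was at 0.381, 0.418 and 0.292 CPM in NC and 1.37, 1.52 and 1.68 CPM in siFSCN1. It rose by 2.07 ± 0.29 and PCF11 by 0.54, so the log2 ratio of antisense to partner went up by 1.36 without overlap between groups.

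NINJ2-AS1, at the start of the adhesion protein gene NINJ2, was at 0.934, 1.25 and 1.37 CPM in NC and 5.03, 5.01 and 5.21 CPM in siFSCN1, a log2 fold change of 2.09 ± 0.16. NINJ2 did not pass (-0.08 ± 0.32, adjusted p = 0.836), and its fitted value lay above 0 with library totals and with upper quartile scaling.

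BCAN-AS1 (chr1:156637783-156641004, GRCh38, minus strand) was the only member called higher that reached 5 FPKM in siFSCN1. It was at 1.69, 2.29 and 2.08 FPKM in NC and at 8.30, 9.0 and 8.0 FPKM in siFSCN1, a log2 fold change of 1.90 ± 0.087 (adjusted p = 1.33e-12). The gene it is named for, BCAN, which encodes the brain proteoglycan brevican, stayed between 0.03 and 0.06 FPKM and was not tested. Of the 67 members called higher, 23 reached 1 FPKM in siFSCN1. In 66 the CPM values did not overlap between groups, which the call itself makes likely, so it adds no support. The exception was PAPPA-AS1, at 1.04, 0.684 and 1.26 CPM in NC and 1.08, 2.37 and 2.74 CPM in siFSCN1.

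**Figure D3:**
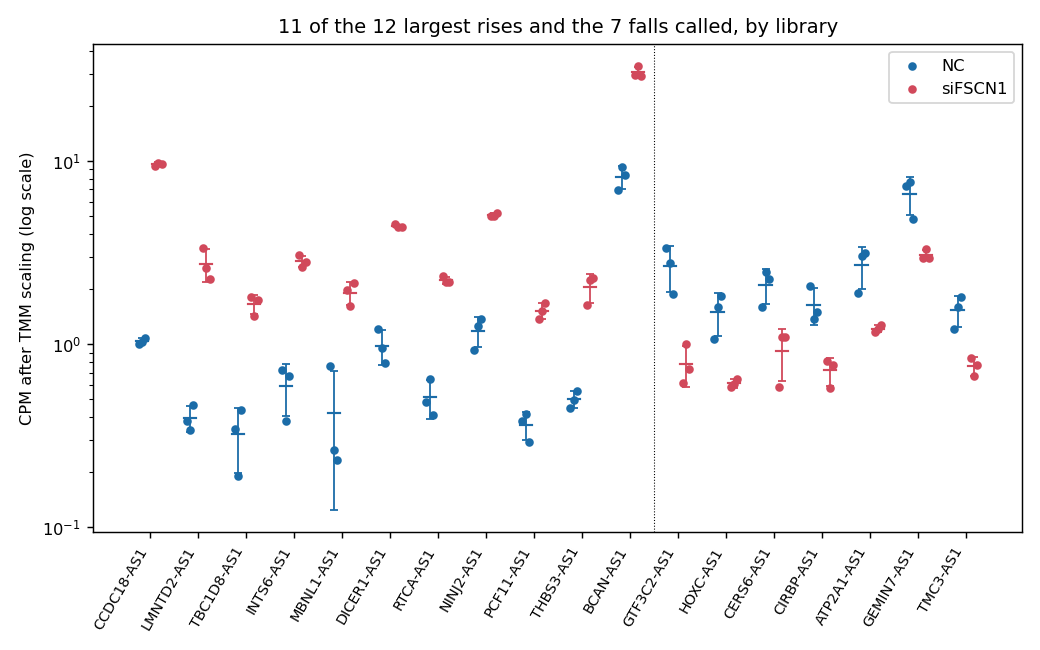
CPM after TMM scaling (log axis) in each library of 11 of the 12 largest rises and, right of the dotted line, the 7 falls called. Points are the 3 NC (blue) and 3 siFSCN1 (red) libraries, horizontal bars are means and vertical bars are SD. In each of the 18 genes the groups are separate, which their selection as called genes makes likely.

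The 7 members called lower had group means of at most 6.596 CPM in NC. GTF3C2-AS1 (chr2:27335520-27342599, plus strand), within the gene of a subunit of the RNA polymerase III factor TFIIIC, fell most, from 3.36, 2.77 and 1.87 CPM in NC to 0.611, 1.00 and 0.736 CPM in siFSCN1 (log2 fold change -1.76 ± 0.26, adjusted p = 7.83e-06). GTF3C2 itself was at -0.51 ± 0.042. HOXC-AS1, from the HOXC cluster of developmental transcription factors, went from 1.07, 1.60 and 1.84 CPM to 0.581, 0.607 and 0.647 CPM (-1.30 ± 0.28). CIRBP-AS1, within the gene of the cold-inducible RNA-binding protein CIRBP, went from 2.08, 1.37 and 1.49 CPM to 0.814, 0.577 and 0.765 CPM (-1.19 ± 0.26), while CIRBP rose by 0.32.

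The other 4 were CERS6-AS1, ATP2A1-AS1, GEMIN7-AS1 and TMC3-AS1. TMC3-AS1, which surrounds a channel-like gene, TMC3, that was at most at 0.02 FPKM, was at 1.21, 1.60 and 1.81 CPM in NC and 0.843, 0.668 and 0.765 CPM in siFSCN1 (-1.02 ± 0.25, adjusted p = 0.00166). No library of the silenced group reached the lowest control in any of the 7, a separation that the call itself makes likely.

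Among members with a high level per length, MIF-AS1, which overlaps the end of the cytokine gene MIF, had the highest mean level of all members at 56.4 FPKM. It was at 69.1, 69.7 and 53.8 FPKM in NC and 58.0, 49.6 and 38.3 FPKM in siFSCN1, a log2 fold change in CPM of -0.57 ± 0.11, with MIF at -0.46 ± 0.079. The FPKM values of both groups overlapped, whereas the CPM values did not. IGFL2-AS1 was at 23.6, 23.3 and 23.8 FPKM in NC and 19.1, 16.5 and 16.2 FPKM in siFSCN1 (-0.61 ± 0.053, adjusted p = 7.69e-09), with the growth factor-like gene IGFL2 at or below 0.11 FPKM.

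Of the other members of high FPKM, PRR34-AS1 and AGAP2-AS1 were lower in siFSCN1 with log2 fold changes of -0.40 ± 0.073 and -0.25 ± 0.051, PITPNA-AS1 did not pass (-0.19 ± 0.092, adjusted p = 0.0742), and FGD5-AS1 rose by 0.15 ± 0.045. OIP5-AS1 had the highest count, and is named here for that after its values were seen. It was at 77.6, 76.5 and 83.0 CPM in NC and 128.5, 133.8 and 137.9 CPM in siFSCN1, a rise of 0.75 ± 0.046 on the log2 scale (adjusted p = 6.65e-11), while OIP5, a centromere assembly factor, was at -0.22 ± 0.064. The 3 steadiest members that did not pass were HSD17B1-AS1 (-0.14 ± 0.061, above 0 with library totals), MAPKAPK5-AS1 (0.08 ± 0.062) and TMEM147-AS1 (0.10 ± 0.085).

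The position of the antisense gene relative to its partner differed between members. In GENCODE v44, 122 members overlap the start of their partner, 62 overlap its end, 46 lie within it and 26 surround it. A further 28 are divergent with starts within 1000 bases, 2 are divergent at a greater distance, 2 are convergent without overlap, and 10 have no row for a partner, among them genes named for whole HOX clusters. Of the DNAJC9-AS1 genes, 1 falls in each divergent class. ENSG00000236756.4 was at -0.40 ± 0.16 (adjusted p = 0.0346) and ENSG00000227540.1 at 0.70 ± 0.28 (adjusted p = 0.0353).

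Called rises were found in each of the larger positional classes. They numbered 29 of 122 at the partner's start, 12 of 62 at its end, 12 of 46 within it, 4 of 26 around it and 9 of 28 among divergent genes, beside 11.7% of all tested genes and 22.3% of those with 30 to 100 counts. Median log2 fold changes were 0.57, 0.32, 0.13, 0.48 and 0.51 in that order. The only called rise without a partner row was HOXB-AS1 (1.21), named after its values were seen. Whether reads were assigned by strand is not given in the sources used here, although the libraries were made with a strand-specific kit, so that reads of overlapping sense and antisense exons may not be told apart. Exons of 258 members overlap an exon on the opposite strand. Among the 40 members without such overlap, 12 were called higher and 1 lower, with a median of 0.52, beside the same shares of all tested genes.

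Divergent pairs share the stretch between the start sites, and the sequences of 7 of the 9 divergent members called higher are given to show how close the starts lie. They were chosen by position and call, after values were seen. Each runs 5′ to 3′ on the antisense gene's strand in GRCh38, with the bases between the starts in lower case and the first 40 bases of the antisense gene in capitals.
RTCA-AS1 (chr1:100266143-100266215, minus): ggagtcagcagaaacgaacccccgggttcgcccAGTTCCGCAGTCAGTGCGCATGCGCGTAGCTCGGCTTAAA
TPT1-AS1 (chr13:45341285-45341384, plus): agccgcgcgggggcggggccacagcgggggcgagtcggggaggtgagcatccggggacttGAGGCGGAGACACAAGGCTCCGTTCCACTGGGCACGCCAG
TM4SF1-AS1 (chr3:149377693-149377817, plus): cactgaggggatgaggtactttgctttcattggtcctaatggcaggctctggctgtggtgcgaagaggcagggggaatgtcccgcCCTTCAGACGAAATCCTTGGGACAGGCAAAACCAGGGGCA
RASAL2-AS1 (chr1:178093945-178094103, minus): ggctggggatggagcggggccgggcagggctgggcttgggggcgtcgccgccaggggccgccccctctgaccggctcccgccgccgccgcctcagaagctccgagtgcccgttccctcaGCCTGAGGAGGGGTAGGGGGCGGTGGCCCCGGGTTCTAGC
EXOC3-AS1 (chr5:443121-443174, minus): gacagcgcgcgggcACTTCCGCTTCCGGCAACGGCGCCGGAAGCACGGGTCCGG
SRRM2-AS1 (chr16:2752561-2752625, minus): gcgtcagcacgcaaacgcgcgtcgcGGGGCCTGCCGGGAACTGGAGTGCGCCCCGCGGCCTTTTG
SRP14-AS1 (chr15:40039182-40039281, plus): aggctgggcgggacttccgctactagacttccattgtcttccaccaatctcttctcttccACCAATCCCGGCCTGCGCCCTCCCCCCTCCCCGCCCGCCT
Between 14 bases (EXOC3-AS1) and 119 bases (RASAL2-AS1) separate the 2 starts. The GC content of the printed stretches ran from 56.8% in TM4SF1-AS1 to 78.0% in RASAL2-AS1.

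In each of these close pairs the log2 fold change of the antisense RNA exceeded that of the sense RNA. The pairs were chosen for a called antisense rise, which made this order likely in advance. RTCA-AS1, with 33 bases to the start of the RNA cyclase gene RTCA, was at 0.485, 0.646 and 0.409 CPM in NC and 2.36, 2.19 and 2.18 CPM in siFSCN1, a log2 fold change of 2.14 ± 0.24. RTCA was at 25.3, 29.2 and 25.7 CPM in NC and 26.1, 26.6 and 27.8 CPM in siFSCN1 (0.01 ± 0.059, adjusted p = 0.902), and its fitted value lay below 0 with RLE scaling. TPT1-AS1, beside the abundant growth-related gene TPT1, was at 1.59, 2.32 and 3.18 CPM in NC and 8.05, 6.95 and 8.56 CPM in siFSCN1 (1.71 ± 0.17). TPT1 stayed between 1706 and 1810 CPM in all 6 libraries (0.02 ± 0.038, adjusted p = 0.735).

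EXOC3-AS1, beside the exocyst subunit gene EXOC3, rose by 1.31 ± 0.16 from 1.56, 2.05 and 1.93 CPM to 4.10, 4.65 and 5.03 CPM, and EXOC3 by 0.15 ± 0.048. SRRM2-AS1, beside the gene of a splicing speckle protein, rose by 1.12 ± 0.19 from 1.35, 1.29 and 1.198 CPM to 2.38, 2.98 and 3.00 CPM, and SRRM2 by 0.38 ± 0.037. SRP14-AS1 rose by 1.11 ± 0.16 from 1.49, 1.86 and 1.64 CPM to 3.23, 3.89 and 3.65 CPM, while SRP14, a subunit of the signal recognition particle, was at -0.30 ± 0.047. In all 3, which were chosen for a called antisense rise, the antisense levels of the groups did not overlap, and the sense change was smaller or opposite.

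TM4SF1-AS1 rose by 1.62 ± 0.29 beside the membrane protein gene TM4SF1 (0.61 ± 0.038), and RASAL2-AS1 by 1.32 ± 0.26 beside RASAL2, a Ras GTPase-activating protein gene (0.46 ± 0.061). Over the 27 divergent pairs with a tested partner, 2 partners were called higher, and without the fold threshold 13 passed upward and 9 downward. Of all tested genes, 11.7% were called higher, 35.1% passed upward and 33.2% passed downward. The log2 ratio of antisense to sense did not overlap between groups in 18 of the 27 pairs. That share is close to the 66.1% found among 1866 pairs of other tested genes with head-to-head starts. It went up in 14 of these and down in 4.

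Across all positions, 288 members have a partner with a row, and in 258 pairs the partner, 1 of 256 distinct genes, was tested. Of the partners, 20 (7.81%) were called higher and 8 (3.13%) lower, beside 11.7% and 4.85% of all tested genes. Without the fold threshold 100 (39.1%) passed upward and 95 (37.1%) downward, near the 35.1% and 33.2% of all tested genes, with a median log2 fold change of 0.00, which became 0.19 with library totals and 0.12 with upper quartile scaling. Both genes passed the test in 126 pairs, and the directions were the same in 91 (72.2%) and opposite in 35. Of the 91, 66 rose together and 25 fell together. Of the 35, the antisense gene rose while its partner fell in 30. As a comparison, 1866 pairs of tested genes on opposite strands with starts within 1000 bases gave 503 of 898 (56.0%) in the same direction. That comparison holds no members and is limited in position, whereas the 126 pairs come from all positions. The divergent pairs with starts within 1000 bases gave 10 in the same and 3 in opposite directions.

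Described across pairs, the log2 fold changes of antisense gene and partner had a Pearson r of 0.42 (n = 258 pairs, which share the 6 libraries). The r was 0.63 for the 57 pairs that overlap at the partner's end, 0.61 for the 40 within the partner, 0.55 for the 16 around it, 0.31 for the 115 at its start and 0.09 for the 27 divergent pairs. It was 0.47 in the 209 pairs with overlapping exons and 0.12 in the 49 without, beside 0.08 in the 1866 head-to-head pairs. In the 24 pairs whose partner covers at least 50% of the antisense exonic bases r was 0.79, and in the 6 with at least 80% it was 0.76. The share of reads from the other strand in the overlapping pairs was not tested.

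**Figure D4:**
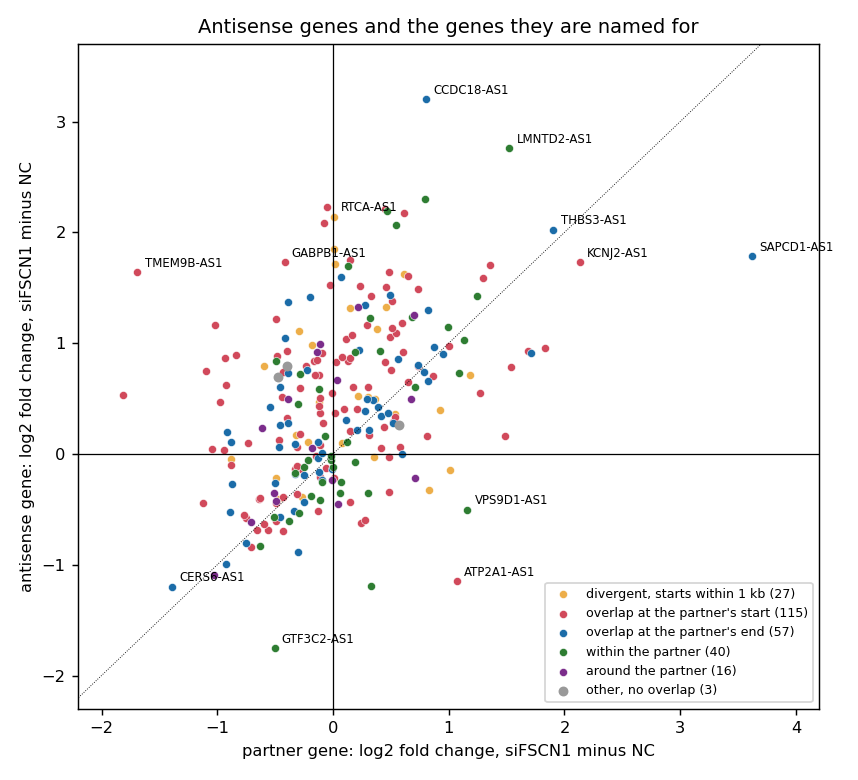
Log2 fold change (siFSCN1 minus NC) of each antisense gene against that of its partner for the 258 tested pairs, coloured by position, with the number of pairs in brackets. The dotted line marks equal change, most pairs lie in a cloud above it near a partner value of 0, and TMEM9B-AS1 and GABPB1-AS1 lie in the upper left with antisense rises and partner falls.

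The log2 ratio of antisense to partner did not overlap between groups in 141 of the 258 pairs (54.7%), beside 66.1% of the 1866 head-to-head pairs. Where it did not overlap, it went up in siFSCN1 in 114 pairs and down in 27. An exact two-sided permutation test gave p = 0.1, the smallest possible, for each of these pairs. Ratios that do not overlap always give this value, so it adds no support. On the FPKM scale the antisense gene was at a median of 13.9% of its partner's level in NC and 20.9% in siFSCN1. In 44 pairs it was above its partner in NC.

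In 13 pairs both genes were called, and in 10 of these they moved the same way. Of all tested single genes, 11.7% were called higher and 4.85% lower, and no share was computed for other pairs. THBS3-AS1 was at 0.450, 0.494 and 0.555 CPM in NC and 1.63, 2.25 and 2.30 CPM in siFSCN1 (2.02 ± 0.26), and the matrix glycoprotein gene THBS3 rose by 1.90 ± 0.10. VCAN-AS1 was at 0.588, 0.608 and 0.730 CPM in NC and 1.05, 2.37 and 1.83 CPM in siFSCN1 (1.43 ± 0.30), and VCAN, the gene of the matrix proteoglycan versican, rose by 1.25 ± 0.047. PAPPA-AS1, all of whose exons lie on exons of PAPPA, rose by 1.03 ± 0.30, and PAPPA, a protease that cleaves insulin-like growth factor binding proteins, by 1.13 ± 0.068. Partner exons cover 43.8% of the exonic bases of THBS3-AS1 and 51.65% of those of VCAN-AS1. In the THBS3, VCAN and PAPPA pairs the ratio of antisense to partner overlapped between groups.

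NR2F1-AS1 rose by 1.59 ± 0.17 with the nuclear receptor gene NR2F1 (1.30 ± 0.11), HHIP-AS1 by 1.71 ± 0.15 with the hedgehog-binding protein gene HHIP (1.35 ± 0.14), and KCNJ2-AS1 by 1.73 ± 0.30 with the potassium channel gene KCNJ2 (2.14 ± 0.15). HHIP-AS1 went from 1.35, 1.25 and 1.43 CPM to 4.42, 4.34 and 4.50 CPM without overlap. The log2 ratio of antisense to partner overlapped between groups at NR2F1 and KCNJ2. It did not overlap at HHIP and LMNTD2, where it rose by 0.33 and 1.11. SAPCD1-AS1 went from 1.04, 0.532 and 0.613 CPM to 2.38, 3.19 and 1.97 CPM (1.78 ± 0.26). SAPCD1 had 2, 3 and 4 counts in NC and 48, 50 and 32 counts in siFSCN1, a ratio of 12.8 with a 95% exact interval of 6.51 to 28.5 that covers counting error only. The log2 ratio of antisense to partner changed by -1.31 without overlap, and 71.8% of the exonic bases of SAPCD1-AS1 lie on SAPCD1 exons.

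Both genes fell in CERS6-AS1 and GEMIN7-AS1. CERS6-AS1, with 69.6% of its exonic bases on exons of the opposite strand, was at 1.59, 2.47 and 2.28 CPM in NC and 0.581, 1.09 and 1.09 CPM in siFSCN1 (-1.197 ± 0.26), and the ceramide synthase gene CERS6 was at -1.39 ± 0.066. GEMIN7-AS1 was at 7.27, 7.67 and 4.85 CPM in NC and 2.97, 3.31 and 2.94 CPM in siFSCN1 (-1.09 ± 0.16), and GEMIN7, a subunit of the SMN complex that assembles spliceosomal particles, at -1.03 ± 0.065. In both pairs the ratio of antisense to partner overlapped between groups.

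Opposite changes were clearest at TMEM9B. TMEM9B-AS1 (chr11:8964502-8977527, plus strand) was at 1.28, 0.798 and 1.26 CPM in NC and 3.55, 3.25 and 3.74 CPM in siFSCN1, a log2 fold change of 1.64 ± 0.19 (adjusted p = 4.97e-07). TMEM9B, a transmembrane protein gene, was at 37.5, 40.9 and 41.4 CPM in NC and 13.8, 11.9 and 11.4 CPM in siFSCN1 (-1.69 ± 0.068, adjusted p = 2.38e-13). The log2 ratio of antisense to partner rose by 3.32, from -4.805, -5.57 and -4.97 in NC to -1.94, -1.85 and -1.59 in siFSCN1. Overlapping exons of the pair share 122 bases.

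In another pair with opposite calls, ATP2A1-AS1 fell from 1.90, 3.04 and 3.13 CPM to 1.16, 1.22 and 1.27 CPM (-1.15 ± 0.21), and the muscle calcium pump gene ATP2A1 rose from 0.588, 1.06 and 0.760 CPM to 1.98, 1.67 and 1.38 CPM (1.07 ± 0.26). In both pairs the groups overlapped for neither gene.

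GABPB1-AS1 (chr15:50354944-50372202, plus strand) was at 10.8, 10.7 and 11.5 CPM in NC and 35.1, 36.2 and 38.5 CPM in siFSCN1, a log2 fold change of 1.73 ± 0.061 (adjusted p = 4.58e-14). GABPB1, a subunit of the transcription factor GABP, was at 21.3, 21.2 and 21.4 CPM in NC and 15.6, 15.7 and 16.5 CPM in siFSCN1 (-0.42 ± 0.064). The antisense RNA was at 17.2% of the partner's FPKM in NC and at 75.9% in siFSCN1.

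Other pairs whose genes passed in opposite directions with a difference of at least 1.5 on the log2 scale included COX10-AS1 (1.22 ± 0.16) with COX10 (-0.50), a heme synthesis enzyme gene, and SP2-AS1 (1.37 ± 0.21) with the transcription factor gene SP2 (-0.39). STARD7-AS1 rose by 0.53 ± 0.19 while STARD7, a lipid transfer protein gene, went from 191.7, 196.4 and 187.4 CPM to 57.3, 51.1 and 55.3 CPM (-1.81 ± 0.047). TIPARP-AS1 rose by 0.87 with TIPARP, an ADP-ribosyltransferase gene, at -0.93, and PSMG3-AS1 by 0.90 with PSMG3, a proteasome assembly factor gene, at -0.84. SOCS2-AS1 (0.62) and SDCBP2-AS1 (0.75) rose beside SOCS2 (-0.92), which restrains cytokine signalling, and SDCBP2 (-1.09).

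The reverse order was seen in 5 pairs, of which VPS9D1-AS1, CIRBP-AS1 and ATP2A1-AS1 reached that difference. VPS9D1-AS1 was at 18.4, 19.5 and 18.7 CPM in NC and 13.3, 14.1 and 12.6 CPM in siFSCN1 (-0.50 ± 0.077), and VPS9D1 rose from 4.19, 4.79 and 4.94 CPM to 10.9, 9.66 and 10.6 CPM (1.16 ± 0.12). The antisense RNA was at 774% of its partner's FPKM in NC and at 244% in siFSCN1.

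**Figure D5:**
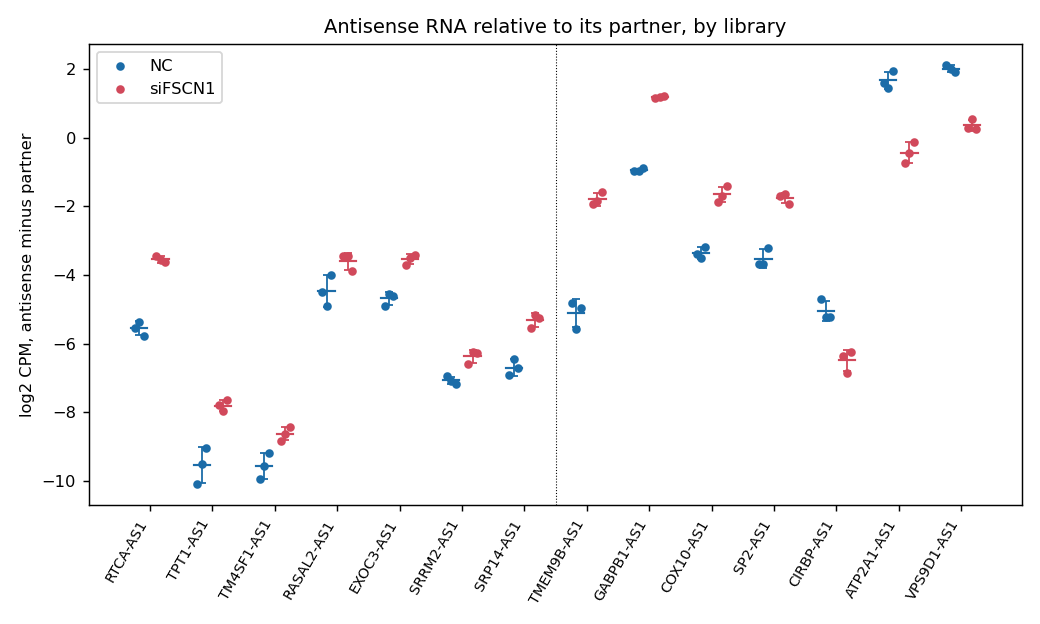
Log2 CPM of the antisense gene minus that of its partner in each library, for the 7 divergent pairs whose sequences are shown (left of the dotted line) and 7 pairs with opposite changes (right). Points are the 3 NC (blue) and 3 siFSCN1 (red) libraries with mean and SD. The ratio is higher in every silenced library for all pairs except CIRBP-AS1, ATP2A1-AS1 and VPS9D1-AS1, where it is lower. Pairs were chosen for a called antisense rise (left) or for opposite changes (right), so these separations follow largely from the choice.

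RefSeq windows of 300 bases around annotated starts (250 before and 50 after, GRCh38.p14) could be matched for 226 of the 298 members. The GC box GGGCGG, searched on both strands, was present in 65.0% of these and in 45.0% of all 35116 windows, CCAAT in 31.0% and 34.6%, TATAAA in 6.19% and 11.5%, and the ETS core CCGGAAG in 12.8% and 10.3%. Member windows had a median GC content of 65.8% and 25 CpG, against 58.7% and 14 in all windows, which are not limited to genes detected here. The part of GC content in the motif shares was not tested. The GC box was in 66.0% of the 50 windows of members called higher and in 64.5% of the 172 windows of members not called.

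Windows of 3 members are shown in antisense orientation, of the pairs with the clearest opposite changes (TMEM9B-AS1, GABPB1-AS1) and of a pair that rose together (VCAN-AS1). Capitals mark the searched motifs on either strand.
TMEM9B-AS1 (chr11:8964425-8964724, plus): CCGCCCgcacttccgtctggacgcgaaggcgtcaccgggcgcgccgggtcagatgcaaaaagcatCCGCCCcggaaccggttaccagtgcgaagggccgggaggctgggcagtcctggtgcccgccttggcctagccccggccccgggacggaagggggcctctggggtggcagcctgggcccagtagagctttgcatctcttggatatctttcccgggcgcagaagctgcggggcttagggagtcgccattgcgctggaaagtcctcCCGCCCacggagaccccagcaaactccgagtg
GABPB1-AS1 (chr15:50353924-50354223, plus): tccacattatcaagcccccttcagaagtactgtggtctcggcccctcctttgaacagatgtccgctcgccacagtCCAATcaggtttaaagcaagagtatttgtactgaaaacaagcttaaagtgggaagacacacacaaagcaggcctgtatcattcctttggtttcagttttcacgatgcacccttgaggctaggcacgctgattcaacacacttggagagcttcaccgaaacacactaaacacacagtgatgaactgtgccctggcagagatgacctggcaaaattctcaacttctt
VCAN-AS1 (chr5:83562265-83562564, minus): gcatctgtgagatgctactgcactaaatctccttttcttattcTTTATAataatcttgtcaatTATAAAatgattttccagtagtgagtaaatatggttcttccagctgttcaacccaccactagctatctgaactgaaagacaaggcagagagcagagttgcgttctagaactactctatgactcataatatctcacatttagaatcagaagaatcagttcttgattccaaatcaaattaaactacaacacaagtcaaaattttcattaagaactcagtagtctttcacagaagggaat
The TMEM9B-AS1 window has a GC content of 68.3% with 3 GC boxes, that of GABPB1-AS1 47.0% with 1 CCAAT, and that of VCAN-AS1 34.3% with 2 TATAAA matches. RefSeq and GENCODE place the start of each of the 3 genes differently.

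Genes of the nuclear exosome and its adaptors are known to limit antisense RNA. The list used here also holds related genes, such as those of poly(A) polymerases and cap-binding proteins, not all of them exosome adaptors. Of 30 tested members of this list, 19 (63.3%) passed downward and 6 upward, beside 33.2% and 35.1% of all tested genes, with a median log2 fold change of -0.27, and 1 was called. All have more than 300 counts. Of all tested genes, 35.2% with 300 to 1000 counts and 57.1% with at least 1000 counts passed downward, and these ranges hold 17 and 13 of the list. With library totals, 13 passed downward and 9 upward. All 10 EXOSC subunits, of which 4 and 6 lie in these count ranges, passed downward, and 9 did so with library totals. EXOSC6 went from 52.9, 52.8 and 53.7 CPM in NC to 23.8, 21.7 and 22.4 CPM in siFSCN1 (-1.23 ± 0.053, adjusted p = 5.39e-13), and EXOSC4 from 68.8, 68.2 and 65.8 CPM to 38.1, 36.0 and 32.3 CPM (-0.93 ± 0.058).

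The 3′ exonuclease gene EXOSC10 was at -0.32 ± 0.048, and DIS3, which holds the other exonuclease, did not pass (-0.03 ± 0.068). The helicase gene MTREX was at -0.28 ± 0.054 and its adaptor ZCCHC8 at -0.25 ± 0.059. Genes that passed upward were RBM7 (0.52), ZCCHC7 (0.54), the poly(A) polymerase genes TENT4A (0.71) and TENT2 (0.55), ZFC3H1 (0.46) and the poly(A) binding protein gene PABPN1 (0.34). The part of these genes in the level of antisense RNA was not tested.

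Of 17 genes whose proteins bind or cut double-stranded RNA, 5 (29.4%) passed upward and 8 (47.1%) downward, beside 35.1% and 33.2% of all tested genes and 26.4% and 57.1% of those with at least 1000 counts, a range that holds 9 of the 17. The counts became 9 and 5 with library totals. The Argonaute gene AGO4 rose by 1.08 ± 0.11, and DICER1 by 0.61. TARBP2, a partner of Dicer, went from 40.5, 42.4 and 40.9 CPM to 20.3, 17.1 and 17.8 CPM (-1.16 ± 0.060), and ILF2, which binds double-stranded RNA, was at -1.09 ± 0.036. The editing enzyme gene ADAR was at -0.14 ± 0.040.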

How the data were processed

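A549 RNA was sequenced in 3 NC and 3 siFSCN1 libraries, grouped by their titles. The authors trimmed reads (FASTX Toolkit 0.0.13), used HISAT2 for alignment to GRCh38 and retained reads with a unique position (the submitters' processing notes name TopHat2 and bcl2fastq). The deposited values are whole-number raw counts per gene and, in a second table, FPKM made by the authors. The counting program, strand setting and annotation release of these counts are not given in the sources used here. Counts of all genes kept by filterByExpr were TMM-scaled and fitted in edgeR 4.0.16 (R 4.3.3) by its quasi-likelihood method, with Benjamini-Hochberg adjustment over 17076 genes, where the authors used DESeq2. Log2 CPM used a prior count of 2. Standard errors came from the fitted change and its F statistic. The script was tested on simulated data. Positions are from GENCODE v44, matched by identifier for all 298 members, and promoter windows from RefSeq.

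Members and gene lists were chosen with earlier results of these data known. Named genes are FSCN1, the 12 largest rises and up to 12 largest falls called, the 6 members of highest FPKM, pairs with both genes called, pairs passing in opposite directions by at least 1.5, the 3 members and 3 non-members nearest the minimum, and the 3 members with the smallest standard errors among those that did not pass. Other genes were named after their values were seen. The exosome list held 31 symbols, 1 of them an older name of SRRT. Some genes are not reported here. The study describes the libraries of a group as biological replicates, but neither it nor the labels say whether they came from separate cultures, so p-values measure the spread between these libraries, which may be technical. In RNA of whole cultures, a change in the share of cells and a change per cell cannot be told apart. Alternatives were RLE and upper quartile scaling, library totals, DESeq2 1.42.0, limma 3.58.1 on log2(FPKM + 0.1) and log2(FPKM + 1), other filters, a replicate block, removal of the abundance trend, other minimum counts, members without opposite exons, a prior count of 0.5 and leaving out each library.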

Additional observations from a re-analysis of the deposited data

How the results depend on the processing

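The 74 members called kept their direction in every fit run, and 47 of 74 were called in all 14 fits on counts. Calls numbered 66 higher and 8 lower with DESeq2 or RLE scaling, 84 and 5 with upper quartile scaling, 97 and 4 with library totals, 46 and 13 with the abundance trend removed, and 67 to 74 higher and 6 to 8 lower when 1 library was left out. Scaling moved the median of all genes to 0.22 (library totals) and 0.15 (upper quartile). Low counts limit single members: those of 30 to 100 counts had a median standard error of 0.228, against 0.0869 from 300 counts upward.

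With limma on log2(FPKM + 1), 4 members were called, all higher and 0 lower, and 60 lncRNA genes in place of 798, and with log2(FPKM + 0.1) 2 were called lower. The pseudocount shrinks changes of genes near 1 FPKM. The stricter filter called 428 lncRNA genes, with fewer tested. Members passing downward without the fold threshold were 74 with the trend removed and 28 with library totals. A minimum mean count of 100 gave 22 called (21 higher, 1 lower), 84 passing (55 upward, 29 downward), 40 pairs in the same and 15 in opposite directions and 64 ratios without overlap. A minimum of 10 gave 114 called (102 higher, 12 lower). The 40 members without opposite exons gave 13 called (12 higher, 1 lower), 23 passing (20 upward, 3 downward), 14 pairs in the same and 2 in opposite directions and 21 ratios without overlap. These sets hold fewer or more members by construction.

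The double-stranded RNA list had 9 genes passing upward and 5 downward with library totals, 8 and 5 with both FPKM fits, and 5 downward with upper quartile scaling. Fitted signs turned for genes near 0. RTCA was at -0.010 with DESeq2, -0.009 with RLE scaling, -0.001 without the filter and between -0.037 and 0.063 when 1 library was left out. AGAP2 was at -0.179 with the trend removed and between -0.079 (without siFSCN1 replicate 3) and 0.174 when 1 library was left out, with -0.033 without NC replicate 3. NINJ2 was at 0.107 with library totals, 0.037 with upper quartile scaling, 0.025 and 0.018 with the FPKM fits and between -0.277 and 0.171 (without siFSCN1 replicate 2) when 1 library was left out. INTS6 was at 0.141, 0.070, 0.104 and 0.038 in the same order of settings, and between -0.155 and 0.059 (without NC replicate 3) when 1 library was left out, with 0.005 without siFSCN1 replicate 1. HSD17B1-AS1 was at 0.048 with library totals and 0.025 and 0.023 with the FPKM fits. MAPKAPK5 was at 0.075 with library totals, 0.005 with upper quartile scaling and 0.051 and 0.037 with the FPKM fits. The cause was not tested.

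Replicate numbers did not pair the libraries (correlations of deviations of -0.03, 0.04 and -0.08), and the replicate block gave 68 higher and 7 lower, with 91 pairs in the same and 36 in opposite directions.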
